A study of Homo sapiens with 20 samples.

Results

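The latest state of an EGF time course was examined here, namely 4 libraries of MDA-MB-468 cells harvested 72 h after EGF was added, set against 4 libraries of untreated control cells. These 8 libraries are 8 of the 20 in the series, chosen by their labels. The other 12 are cells given EGF for 12, 24 or 48 h, 4 libraries each, and they enter the shared estimate of the spread and the comparisons of 72 h with the earlier times. MDA-MB-468 is a triple-negative breast cancer line of epithelial origin, so every library comes from 1 line with the same genetic background. Every culture was serum-starved for 24 h before the first addition of EGF, the control included, and treated cultures received 50 ng/mL EGF at different times so that all groups could be harvested on the same occasion. The question behind the design is how gene expression changes while EGF drives an epithelial-to-mesenchymal transition (EMT), in which epithelial cells loosen their junctions and gain motility.

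EGF binds its receptor EGFR, a tyrosine kinase that signals through RAS, ERK and PI3K. ERK activity switches on immediate early transcription factors, among them the FOS and JUN proteins that form AP-1, and it also switches on its own inhibitors, such as the Sprouty proteins and the dual-specificity phosphatases. In epithelia the same receptor governs proliferation, wound closure and keratinocyte differentiation. MDA-MB-468 cells carry extra copies of EGFR, and a high dose of EGF is known to slow their growth.

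The libraries had medians of 20834697 counts in the control (range 18393007 to 22158289) and 17292986 counts after 72 h (range 15611961 to 25856953). Levels are CPM (TMM-normalized read counts relative to the library total), in which TMM scales libraries so that most genes do not shift. They follow the reads of a gene and are not per length, so levels are compared between groups and not between genes. Breast epithelial and basal-like markers were present in both groups, with all 8 of 8 markers tested. Of the fibroblast, endothelial and leukocyte markers, 2 of 7, 2 of 5 and 3 of 8 had enough counts to test. The summed leukocyte markers ranged from 4.14 to 4.52 CPM in the control and from 28.2 to 33.5 CPM after 72 h. Of these, CD68, a lysosomal glycoprotein that also marks macrophages, rose from 1.15 to 26.7 CPM, and all 3 tested markers were higher after 72 h, while 3 of the 8 were at 0 counts in all 8 libraries. Their part in the results was not tested. SMAD4, which MDA-MB-468 cells are known to have lost, had 0 to 3 counts in each of the 8 libraries.

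After 72 h, 10177 of 16522 tested genes differed from the control (61.6%), by edgeR's quasi-likelihood test with a Benjamini-Hochberg adjusted p under 0.05. Of these, 5062 were higher (30.6% of genes tested) and 5115 lower (31.0%). The rises were larger than the falls. Above 1.5-fold there were 3344 genes (20.2%), and below 0.67-fold there were 2578 (15.6%). At least a 10-fold change was fitted for 485 of the higher genes but for 46 of the lower ones. In 26.1% of genes all 4 libraries at 72 h lay above all 4 controls, and in 25.9% all 4 lay below. Rises outnumbered falls among genes of low level and not among those of high level. Of 1933 tested genes under 1 CPM, 504 rose and 195 fell, while of 2138 genes over 100 CPM, 686 rose and 840 fell. Long noncoding RNAs rose more often than they fell, with 35.1% of 2403 higher and 19.1% lower. Of 13365 protein-coding genes 29.8% were higher and 33.9% lower, and these kinds of gene were not matched for level. With so many genes changed, a gene list is described below by its counts and its median log2 fold change, to be read against 30.6% higher, 31.0% lower and a median of -0.01 over all tested genes. These values depend on the TMM scaling. With scaling by library totals alone, 4413 genes were higher and 5817 lower, with a median of -0.085. Unless stated otherwise, all 4 libraries at 72 h lay on one side of all 4 controls for every gene that is named as rising or falling. In bulk RNA, a change in the share of cells that express a gene and a change in RNA per cell cannot be told apart.

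**Figure D1:**
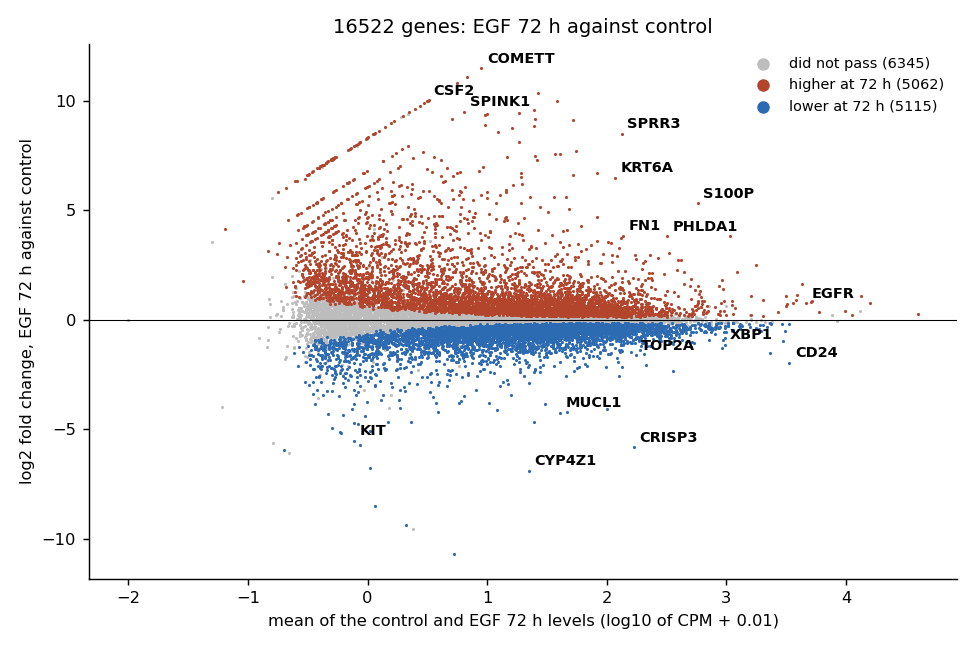
Each point is 1 of 16522 genes, with the mean of its control and 72 h levels on the horizontal axis (log10 of CPM + 0.01) and its log2 fold change at 72 h on the vertical axis. Red and blue points passed the test as higher or lower. The scatter reaches further up than down, and the slanting rows of points at the upper left are genes with 0 or very few counts in the control, whose fitted values depend on the prior count.

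The largest rises belonged to genes that were nearly silent in control cells. COMETT, a long noncoding RNA gene near the MET receptor gene (ENSG00000231210, chromosome 7 from 116563594 to 116663829, 7 merged exons on GRCh38), had 0 counts in every control library and 18.2, 18.5, 17.5 and 17.2 CPM at 72 h, which puts it at least 130.2-fold higher against a floor of 3 counts per library. It lies within the region of a second noncoding gene, AC006159.2, on the same strand. Merged exons join the overlapping exons of all transcripts that GENCODE 29 gives for a gene. Their number can differ from the exons of any single transcript. SH2D1B, an adaptor best known from natural killer cells, was also at 0 in every control library and at 16.4, 14.2, 11.5 and 11.9 CPM at 72 h, at least 98.3-fold higher. LINC01897 was at least 81.7-fold higher in the same way, from 0 to 11.2 ± 0.260 CPM. IL1RL1, the receptor for interleukin-33, stood at 0.0502, 0, 0.0854 and 0 CPM in the control libraries and 60.2, 60.2, 46.8 and 46.7 CPM in the 72 h libraries. That is a ratio of 1593-fold (95% counting interval 545 to 7729.7), and the groups were far apart. LINC00520 rose from 0.0634 ± 0.0806 to 77.0 ± 6.35 CPM (log2 fold change 10.02 with a standard error of 0.253, edgeR adjusted p = 6.37e-20). Among the other large rises were secreted proteins of barrier epithelia. RNASE7, an antimicrobial ribonuclease of skin, was 822-fold (95% counting interval 321 to 3018) higher, and the trypsin inhibitor SPINK1 was 1145-fold (95% counting interval 205 to 45276) higher, reaching 36.6 ± 5.14 and 12.9 ± 1.89 CPM. PPBP, a chemokine precursor, was 851-fold (95% counting interval 235 to 7037) higher. LINC00973 was 897-fold (95% counting interval 160.4 to 35455) higher, at 10.1 ± 1.05 CPM. Both SPINK1 and LINC00973 had 1 count in the 4 control libraries together, so their ratios are loosely fixed and are not to be ranked against the bounds given for genes at 0. Counting intervals cover counting error only.

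Several of the strongest rises map to 1 stretch of chromosome 1 that holds genes of the cornified envelope, the protein shell of squamous cells. Not every gene near it rose. S100A9 (chromosome 1 from 153357854 to 153361027) and S100A8 (chromosome 1 from 153390032 to 153391188) lie nearby and fell, as given below. SPRR3 (chromosome 1 from 153001747 to 153003856, 4 merged exons), a small proline-rich envelope protein, stood at 1.00, 0.547, 0.768 and 0.625 CPM in the control libraries and 286, 258, 242 and 275 CPM in the 72 h libraries. It rose 361-fold (log2 fold change 8.50 with a standard error of 0.161, edgeR adjusted p = 4.28e-22), with no overlap. SPRR1B rose from 0.527 ± 0.0581 to 111 ± 3.71 CPM (log2 fold change 7.71, edgeR adjusted p = 2.56e-23), and SPRR2A (chromosome 1 from 153056113 to 153057537, 2 merged exons) from 0.389 ± 0.138 to 74.1 ± 8.38 CPM (log2 fold change 7.56, edgeR adjusted p = 2.36e-18). SPRR2D reached 36.5 ± 2.67 CPM from 0.130 ± 0.0788 (log2 fold change 8.12, edgeR adjusted p = 4.24e-21). The SPRR2 genes are near-identical copies, so reads may be divided between them in a way that is uncertain. PRR9 (chromosome 1 from 153217584 to 153219317, 2 merged exons), a proline-rich gene of the same neighborhood, stood at 0, 0.0420, 0 and 0.192 CPM in the control and 56.5, 51.2, 41.8 and 46.5 CPM after 72 h (log2 fold change 9.60 with a standard error of 0.321, edgeR adjusted p = 1.76e-17).

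The region upstream of 4 of the risen genes is shown because each holds the core AP-1 site, and AP-1 genes themselves rose. Each run is the 250 bases before the start of the gene, read 5′ to 3′ on the strand of the gene from the RefSeq promoter table (build GRCh38.p14), with the site in capitals. PRR9 lies on the plus strand (chr1:153217334-153217583), SPRR1B on the plus strand (chr1:153030953-153031202), SPRR2A on the minus strand (chr1:153057513-153057762) and PLAUR, the urokinase receptor, on the minus strand (chr19:43670170-43670419).
PRR9: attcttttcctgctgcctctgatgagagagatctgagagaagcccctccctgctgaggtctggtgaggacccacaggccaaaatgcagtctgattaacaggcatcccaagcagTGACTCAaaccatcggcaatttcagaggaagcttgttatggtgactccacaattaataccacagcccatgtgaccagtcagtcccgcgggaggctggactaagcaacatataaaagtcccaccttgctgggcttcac
SPRR1B: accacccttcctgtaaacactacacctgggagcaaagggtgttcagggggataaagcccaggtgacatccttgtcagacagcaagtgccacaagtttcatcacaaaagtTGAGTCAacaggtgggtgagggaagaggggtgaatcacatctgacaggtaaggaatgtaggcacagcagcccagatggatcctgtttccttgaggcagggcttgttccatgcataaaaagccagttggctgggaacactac
SPRR2A: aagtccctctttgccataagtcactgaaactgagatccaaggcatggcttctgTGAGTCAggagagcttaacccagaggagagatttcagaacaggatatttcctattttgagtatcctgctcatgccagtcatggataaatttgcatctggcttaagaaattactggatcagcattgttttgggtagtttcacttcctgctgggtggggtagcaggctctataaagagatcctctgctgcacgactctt
PLAUR: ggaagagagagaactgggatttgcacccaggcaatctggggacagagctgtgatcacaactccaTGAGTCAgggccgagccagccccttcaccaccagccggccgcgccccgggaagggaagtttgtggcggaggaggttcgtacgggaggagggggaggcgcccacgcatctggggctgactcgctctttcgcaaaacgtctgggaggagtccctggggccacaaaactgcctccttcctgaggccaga
The site begins 137 bases before the start in PRR9, 141 in SPRR1B, 197 in SPRR2A and 186 in PLAUR. The letters searched were TGACTCA and its reverse complement TGAGTCA, over 250 bases before to 50 after the start. Promoters were matched by symbol for 11369 tested genes, of which 3.39% held the site, and 4.92% of all 27305 promoters in the table held it. The share was 8.81% of the 1283 matched genes that rose at least 2-fold (113 genes) and 3.17% of the 726 that fell at least 2-fold (23 genes). For the lists, every member with a promoter was counted, whether or not it was tested or rose. The site was held by 8 of 28 squamous genes (28.6%), 3 of 18 integrin and laminin genes and 2 of 11 protease genes. It was held by 0 of 22 mitotic genes, which are too few to set apart from the 3.39% of tested genes. The serum response element was searched in 2 of its forms on both strands. It was in 0 of the 1283 risen genes, in 2 of the 726 fallen genes and in 11 of all 11369 tested genes (0.0968%). These are too few to set the groups apart. A match describes these letters and is not evidence of binding.

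Among the 12 largest falls was that of CYP4Z1. This gene of a mammary fatty acid hydroxylase (chromosome 1 from 47067488 to 47118319, 12 merged exons) stood at 41.3, 41.4, 50.2 and 43.7 CPM in the control libraries and 0.424, 0.284, 0.447 and 0.255 CPM in the 72 h libraries. It was 119.9-fold lower (log2 fold change -6.91 with a standard error of 0.184, edgeR adjusted p = 1.39e-19). Its pseudogene CYP4Z2P, which shares much of its sequence, went from 10.5 ± 0.688 CPM to 0 counts in every library at 72 h, at least 65.2-fold lower against the floor, and reads could be exchanged between these copies. CRISP3, a cysteine-rich secretory protein (chromosome 6 from 49727384 to 49744437, 8 merged exons), stood at 323, 295, 381 and 324 CPM in the control libraries and 4.66, 6.83, 6.53 and 5.68 CPM in the 72 h libraries. This is a 56.3-fold fall (log2 fold change -5.82 with a standard error of 0.108, edgeR adjusted p = 4.28e-22) without overlap. MUCL1, a small secreted mucin-like protein of breast, fell from 77.1 ± 2.82 to 4.06 ± 0.633 CPM (log2 fold change -4.24, edgeR adjusted p = 1.17e-19). SELENOP, the selenium carrier, fell from 87.5 ± 16.2 to 4.80 ± 0.771 CPM (log2 fold change -4.20, edgeR adjusted p = 1.38e-15), and CP, which encodes the copper protein ceruloplasmin, from 57.0 ± 6.22 to 3.90 ± 0.144 CPM (log2 fold change -3.87, edgeR adjusted p = 1.12e-17). ELAPOR1 fell from 191 ± 11.3 to 11.4 ± 1.57 CPM (log2 fold change -4.07, edgeR adjusted p = 5.91e-18). CYP4B1 and ATP13A5 fell by similar amounts, to 1.33 ± 0.282 and 1.85 ± 0.323 CPM (log2 fold changes -4.13 and -4.69). AXIN2, a feedback target of Wnt signaling, fell from 10.8 ± 1.11 to 0.770 ± 0.159 CPM (log2 fold change -3.80, edgeR adjusted p = 8.18e-14). POU2AF1 and the interleukin-22 decoy receptor IL22RA2 fell as well (log2 fold changes -3.71 and -3.79).

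The largest gains in CPM, with mitochondrially encoded and cytosolic ribosomal protein genes left aside, were those of abundant transcripts. FTH1, the ferritin heavy chain that stores iron, stood at 3831, 4115, 3450.3 and 3591 CPM in the control libraries and 6845, 6334, 6748 and 6959 CPM in the 72 h libraries (log2 fold change 0.84 with a standard error of 0.0640, edgeR adjusted p = 5.24e-11). TMSB4X, which encodes the actin-binding peptide thymosin beta-4, rose from 2052 ± 129.8 to 6446 ± 293 CPM (log2 fold change 1.65, edgeR adjusted p = 4.1e-17). Both genes have many processed pseudogenes that can take or give reads. MT2A, a metallothionein that binds zinc, rose 5.65-fold to 3031 ± 314 CPM, and LCN2, the iron-scavenging lipocalin, rose 14.2-fold to 2008 ± 71.9 CPM. EGFR (chromosome 7 from 55019021 to 55211628, 34 merged exons) stood at 3357, 3534, 3421 and 3583 CPM in the control libraries and 6012, 5712, 6125 and 5619 CPM in the 72 h libraries (log2 fold change 0.76 with a standard error of 0.0664, edgeR adjusted p = 7.07e-10), all 4 higher than every control. CD44, a hyaluronan receptor, rose from 2407 ± 97.1 to 3989 ± 79.2 CPM, and ANXA1, an annexin, from 443 ± 57.1 to 1995 ± 116 CPM. ACTB gained 1.16-fold (log2 fold change 0.21, edgeR adjusted p = 0.00533), with 3 of the 4 libraries above all controls, a change too small to pass when libraries were scaled by their totals alone (adjusted p = 0.0735). The largest loss on the same terms was that of CD24, a surface glycoprotein often contrasted with CD44 in breast epithelium. It stood at 5329, 5031, 5777 and 5270.4 CPM in the control libraries and 1386, 1394, 1355 and 1364 CPM in the 72 h libraries (log2 fold change -1.96 with a standard error of 0.0573, edgeR adjusted p = 8.27e-19), a fall of 3.89-fold. MGP, the matrix Gla protein, fell from 3469.5 ± 374 to 1196 ± 44.8 CPM (log2 fold change -1.54, edgeR adjusted p = 2.28e-15). XBP1, a transcription factor of secretory cells, fell from 1333 ± 45.3 to 605 ± 8.58 CPM (log2 fold change -1.14, edgeR adjusted p = 2.9e-15). PTMA, HMGN2, DBI and STMN1 lost 1.95-fold, 2.44-fold, 1.92-fold and 1.8-fold. CASP14, a caspase of cornifying skin, fell 1.41-fold (log2 fold change -0.50, edgeR adjusted p = 1.51e-06), which is the opposite direction to the small proline-rich genes.

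Most tested ligand and receptor genes of the EGF system differed in RNA from the control 72 h after the ligand was given. Of 8 tested EGF family ligands 5 rose and 1 fell (median log2 fold change 2.33). AREG, amphiregulin, stood at 1.56, 1.89, 1.84 and 1.87 CPM in the control libraries and 115, 94.4, 72.8 and 72.7 CPM in the 72 h libraries (log2 fold change 5.63 with a standard error of 0.255, edgeR adjusted p = 4.56e-13), with replicates 1 and 2 the highest and every library at 72 h above the controls. EPGN rose from 0.487 ± 0.280 to 28.4 ± 2.52 CPM (log2 fold change 5.84, edgeR adjusted p = 2.26e-16), EREG from 0.517 ± 0.129 to 9.64 ± 1.57 CPM (log2 fold change 4.20, edgeR adjusted p = 7.41e-14), HBEGF from 1.85 ± 0.135 to 18.7 ± 3.17 CPM (log2 fold change 3.34, edgeR adjusted p = 5.66e-13) and TGFA from 30.0 ± 1.5 to 75.3 ± 6.12 CPM (log2 fold change 1.33, edgeR adjusted p = 6.48e-11). NRG2, a ligand of the other ERBB receptors, fell to 0.305 ± 0.0763 CPM. The gene of EGF itself was at 5.13 ± 0.271 and 5.63 ± 0.554 CPM (adjusted p = 0.379). Against the rise of EGFR, ERBB2 fell from 21.5 ± 2.96 to 11.1 ± 1.94 CPM (log2 fold change -0.97, edgeR adjusted p = 6.89e-06) and ERBB3 from 62.2 ± 3.76 to 41.2 ± 2.44 CPM (log2 fold change -0.60, edgeR adjusted p = 2.57e-08).

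Among 17 genes that restrain EGFR or ERK, 12 rose and 3 fell (median 0.92). ERRFI1, which binds and blocks the EGFR kinase, stood at 74.3, 95.1, 91.7 and 90.0 CPM in the control libraries and 451, 411, 350.5 and 354 CPM in the 72 h libraries (log2 fold change 2.16 with a standard error of 0.150, edgeR adjusted p = 1.38e-10). DUSP5 and DUSP6, phosphatases of ERK, rose from 10.3 ± 0.690 to 81.9 ± 14.5 CPM and from 5.36 ± 0.637 to 35.8 ± 4.50 CPM, and SPRY2 from 11.2 ± 1.04 to 72.0 ± 7.68 CPM (log2 fold changes 2.99, 2.74 and 2.69). The 3 that fell were LRIG1 (29.8 to 10.3 CPM, log2 fold change -1.53), which promotes loss of EGFR from the surface, LRIG3 (log2 fold change -0.48) and SPRY1 (log2 fold change -0.58). The normalized values deposited by the authors imply a scaling factor for each gene and library, and with these factors the fall of LRIG3 did not pass (adjusted p = 0.0842).

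Of 19 AP-1, early growth and ETS factor genes, 17 rose and 1 fell (median 0.97). FOSL1, the FOS-family member FRA-1, stood at 2.31, 3.87, 2.35 and 2.60 CPM in the control libraries and 119, 83.6, 82.9 and 88.3 CPM in the 72 h libraries (log2 fold change 5.06 with a standard error of 0.248, edgeR adjusted p = 2.56e-12). Replicate 1 was the highest of the 4, and all were above every control. PHLDA1 rose from 42.5 ± 6.49 to 601 ± 65.6 CPM (log2 fold change 3.82, edgeR adjusted p = 1.02e-10) and IER3 from 52.7 ± 3.5 to 406 ± 64.1 CPM (log2 fold change 2.95, edgeR adjusted p = 1.11e-12). FOSB, ATF3 and KLF6 were higher too, at 9.29 ± 1.46, 50.6 ± 1.66 and 231 ± 21.9 CPM (log2 fold changes 2.87, 1.53 and 1.75). The ETS factors ETV4 and ETV5, well-known readouts of ERK, rose from 8.30 ± 1.25 to 28.8 ± 1.62 CPM and from 17.1 ± 1.45 to 54.6 ± 2.58 CPM. EGR1, an immediate early gene, went the other way (55.6 to 41.3 CPM, log2 fold change -0.42, edgeR adjusted p = 0.0121), with 3 of the 4 libraries at 72 h below all controls, and it did not pass without control replicate 2 (log2 fold change -0.26). MYC rose 1.45-fold (log2 fold change 0.54, edgeR adjusted p = 6.64e-05).

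**Figure D2:**
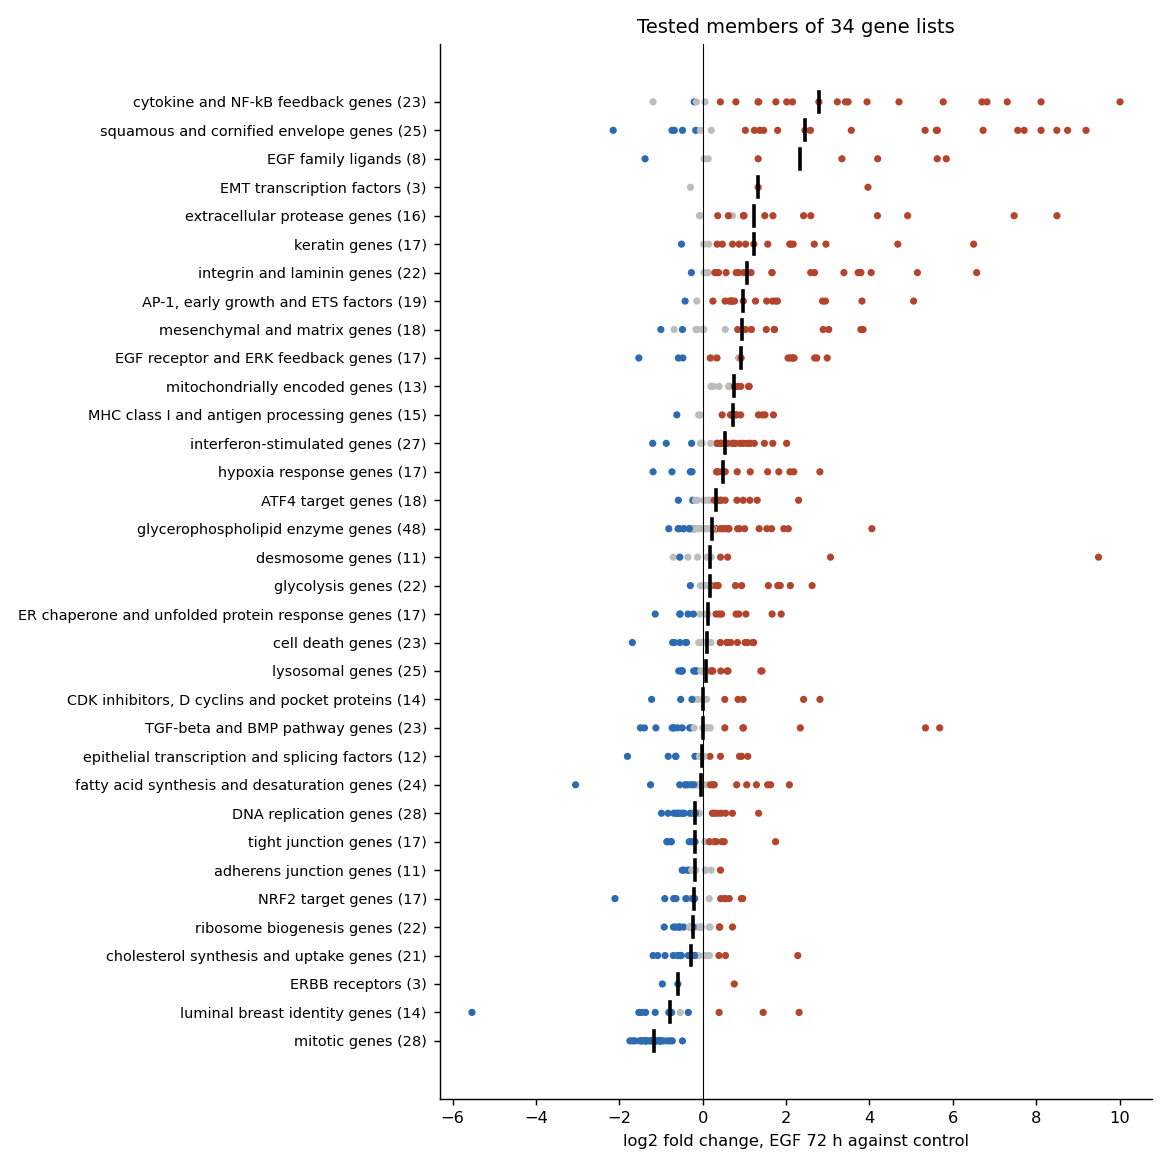
Each row is 1 of 34 gene lists with the number of tested members in parentheses, each point is a member at its log2 fold change at 72 h, and the black bar is the list median. Red and blue points passed the test as higher or lower and gray points did not. Cytokine and squamous genes stand at the top and mitotic genes, all 28 of them blue, at the bottom.

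Genes linked to EMT changed in part. Of 10 EMT transcription factor genes only 3 had enough counts to test. SNAI1, which represses CDH1, rose from 1.48 ± 0.521 to 3.75 ± 0.505 CPM (log2 fold change 1.33, edgeR adjusted p = 1.49e-05). ZEB1 was 18.2-fold (95% counting interval 5.88 to 91.6) higher, yet reached only 0.627 ± 0.0773 CPM. SNAI2 and TWIST1 had too few counts. Of 18 tested mesenchymal and matrix genes 10 rose and 2 fell (median 0.93). FN1, fibronectin, stood at 21.0, 16.2, 16.6 and 17.4 CPM in the control libraries and 285, 249, 252 and 237 CPM in the 72 h libraries (log2 fold change 3.85 with a standard error of 0.115, edgeR adjusted p = 1.38e-18), and no library overlapped. VIM, vimentin, stood at 20.5, 18.6, 22.1 and 19.99 CPM in the control and 164, 165, 166 and 165 CPM after 72 h (log2 fold change 3.02 with a standard error of 0.0787, edgeR adjusted p = 9.9e-20). TNC, tenascin-C, rose from 1.37 ± 0.479 to 19.1 ± 1.84 CPM (log2 fold change 3.80, edgeR adjusted p = 3.22e-15), and LOX, which crosslinks collagen, from 4.67 ± 1.36 to 34.7 ± 1.93 CPM (log2 fold change 2.89, edgeR adjusted p = 3.21e-14). TAGLN fell to 0.727 ± 0.157 CPM and CCN1 to 30.9 ± 3.10 CPM (log2 fold changes -1.0 and -0.49). N-cadherin (CDH2) had too few counts to test.

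Epithelial junction genes moved in both directions. Of 11 adherens junction genes 4 fell and 1 rose (median -0.19). CDH1, E-cadherin, stood at 112, 148, 117 and 133 CPM in the control libraries and 91.1, 83.0, 96.1 and 92.2 CPM in the 72 h libraries (log2 fold change -0.49 with a standard error of 0.0801, edgeR adjusted p = 1.11e-05), a fall of 1.41-fold. EPCAM fell from 181 ± 11.4 to 144 ± 6.59 CPM (log2 fold change -0.33, edgeR adjusted p = 8.2e-05) and CTNNB1, beta-catenin, from 122 ± 7.58 to 95.2 ± 5.38 CPM (log2 fold change -0.36, edgeR adjusted p = 2.43e-05). P-cadherin (CDH3) rose from 28.8 ± 4.51 to 38.6 ± 1.29 CPM (log2 fold change 0.43, edgeR adjusted p = 0.0005). Tight junction genes were divided, with 6 of 17 higher and 8 lower (median -0.18). CLDN12 rose from 31.7 ± 4.12 to 107 ± 5.66 CPM (log2 fold change 1.75, edgeR adjusted p = 2.69e-13), while TJP3, CLDN3 and CGN fell (log2 fold changes -0.86, -0.85 and -0.76). Of 11 desmosome genes 4 rose and 1 fell (median 0.18), while 6 did not pass, and the 36.4% higher were near the share over all tested genes. The member that fell was DSC3, another desmosomal cadherin. Its fold was not below 0.67, and whether its libraries overlapped the controls is not given here. The desmosomal cadherin DSG3, a gene of stratified epithelium, was at 0 counts in every control library and at 4.59, 5.23, 4.02 and 4.02 CPM at 72 h, at least 32.5-fold higher, and PKP1 rose from 0.856 ± 0.229 to 7.2 ± 0.564 CPM (log2 fold change 3.07, edgeR adjusted p = 2.97e-13). EZR, ezrin, which links actin to the membrane, rose from 99.3 ± 3.08 to 163 ± 6.43 CPM (log2 fold change 0.71, edgeR adjusted p = 8.31e-09). Of 12 epithelial transcription and splicing factors 5 rose and 5 fell (median -0.02). GRHL3 fell from 18.7 ± 2.55 to 5.33 ± 0.373 CPM (log2 fold change -1.81, edgeR adjusted p = 4.38e-12) and GRHL2 from 43.5 ± 6.73 to 24.6 ± 1.78 CPM (log2 fold change -0.83, edgeR adjusted p = 1.12e-07), whereas KLF5 and KLF4 rose to 286 ± 9.24 and 16.1 ± 1.39 CPM (log2 fold changes 1.08 and 0.88). With the factors per gene of the deposited normalized values, the changes of CDH1, EPCAM, CDH3 and GRHL2 did not pass (adjusted p = 0.157, 0.361, 0.0769 and 0.196). Without EGF 72 h replicate 1 there were 3 higher tight junction genes, and scaling by library totals gave 2 of those, 7 lower adherens junction genes and 3 lower desmosome genes. Lower desmosome genes numbered 2 without control replicate 3, control replicate 4 or EGF 72 h replicate 1, and higher adherens junction genes 2 without control replicate 2.

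Keratin and squamous genes were among the most changed. Of 17 tested keratin genes 14 rose and 1 fell (median 1.23). KRT6A (chromosome 12 from 52487174 to 52493257, 7 merged exons), a keratin of wounded and activated epidermis, stood at 3.37, 2.14, 2.22 and 2.60 CPM in the control libraries and 269, 225, 219 and 213 CPM in the 72 h libraries (log2 fold change 6.50 with a standard error of 0.135, edgeR adjusted p = 2.29e-21), with no overlap between groups. KRT6B rose from 6.29 ± 0.352 to 161 ± 11.3 CPM (log2 fold change 4.68, edgeR adjusted p = 4.83e-22) and its partner KRT16 from 11 ± 2.09 to 70.2 ± 7.69 CPM (log2 fold change 2.68, edgeR adjusted p = 6.78e-16). KRT6A and KRT6B are near-identical, so the division of reads between them is uncertain. The basal keratin KRT14 rose from 6.61 ± 1.08 to 28.6 ± 2.62 CPM (log2 fold change 2.11, edgeR adjusted p = 3.93e-14), while its partner KRT5 was at 198 ± 20.7 and 201 ± 11.7 CPM (adjusted p = 0.811). The luminal keratins KRT8 and KRT18 rose as well (log2 fold changes 0.72 and 0.87), and KRT4 fell (log2 fold change -0.51). Of 25 tested squamous and cornified envelope genes 18 rose and 5 fell (median 2.45). SERPINB3 and SERPINB4, neighboring and near-identical protease inhibitors known as squamous cell carcinoma antigens, rose to 50.2 ± 8.35 and 32.0 ± 5.99 CPM from 0.0783 ± 0.0741 and 0.0650 ± 0.0543. S100P stood at 32.1, 32.0, 24.5 and 23.4 CPM in the control libraries and 1234, 1102, 1109.7 and 1077 CPM in the 72 h libraries (log2 fold change 5.34 with a standard error of 0.101, edgeR adjusted p = 4.28e-22). A2ML1, a protease inhibitor of cornified skin, rose from 0.908 ± 0.0322 to 44.5 ± 2.39 CPM (log2 fold change 5.60, edgeR adjusted p = 2.83e-20), and IVL, involucrin, from 1.61 ± 0.122 to 8.86 ± 0.129 CPM (log2 fold change 2.45, edgeR adjusted p = 2.86e-12). The exceptions included S100A8, a subunit of calprotectin, which stood at 232, 197, 219.9 and 218 CPM in the control libraries and 48.2, 50.9, 48.9 and 47.6 CPM in the 72 h libraries (log2 fold change -2.15 with a standard error of 0.0886, edgeR adjusted p = 6.15e-16), lower in every library. Its partner S100A9 fell from 1318 ± 82.4 to 941 ± 30.0 CPM (log2 fold change -0.49, edgeR adjusted p = 7.23e-06). TGM1, the enzyme that crosslinks the envelope, was at 1.29 ± 0.387 and 0.787 ± 0.146 CPM (log2 fold change -0.68, edgeR adjusted p = 0.0266), with 2 of the 4 libraries at 72 h below all controls, and its fall did not pass in DESeq2 (adjusted p = 0.0609) or without control replicate 1, control replicate 4, EGF 72 h replicate 2 or EGF 72 h replicate 4 (log2 fold changes -0.54, -0.58, -0.58 and -0.63). The count of 5 lower squamous genes became 3 without control replicate 1, EGF 72 h replicate 2 or EGF 72 h replicate 4.

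Most integrin and laminin genes, whose products attach cells to the basement membrane, were higher. Of 22 integrin and laminin genes 18 rose and 1 fell (median 1.07). LAMB3, a chain of the anchoring laminin of skin, stood at 1.26, 1.93, 1.11 and 1.68 CPM in the control libraries and 62.7, 50.7, 48.8 and 51.6 CPM in the 72 h libraries (log2 fold change 5.15 with a standard error of 0.138, edgeR adjusted p = 1.44e-19), with no overlap. LAMA3, another of its chains, rose from 4.06 ± 0.600 to 42.3 ± 3.92 CPM (log2 fold change 3.39, edgeR adjusted p = 4.57e-17). Their receptor on the cell side rose as well, with ITGB4 from 18.8 ± 4.24 to 121 ± 16.4 CPM (log2 fold change 2.68, edgeR adjusted p = 1.72e-13) and ITGA6 from 117 ± 11.7 to 261 ± 18.4 CPM (log2 fold change 1.16, edgeR adjusted p = 1.49e-10). COL17A1, a transmembrane collagen of hemidesmosomes, reached 8.19 ± 1.14 CPM (102-fold (95% counting interval 49.2 to 255) higher), and ITGA2, a collagen receptor subunit, rose from 18.5 ± 2.21 to 246 ± 33.2 CPM (log2 fold change 3.73, edgeR adjusted p = 1e-12). ITGAV was the member that fell (238 to 197 CPM, log2 fold change -0.27, edgeR adjusted p = 0.0101), with 3 of 4 libraries below all controls, and it did not pass without control replicate 3 (log2 fold change -0.17). Of 16 extracellular protease genes 13 rose and 0 fell (median 1.24). PLAT, tissue plasminogen activator, stood at 0.402, 0.252, 0.213 and 0.240 CPM in the control libraries and 58.3, 51.9, 47.6 and 40.3 CPM in the 72 h libraries (log2 fold change 7.47 with a standard error of 0.254, edgeR adjusted p = 4.09e-17). PLAUR rose from 25.2 ± 2.74 to 152 ± 14.3 CPM (log2 fold change 2.59, edgeR adjusted p = 1.45e-15) and SERPINE2, an inhibitor of serine proteases, from 2.08 ± 0.364 to 62.9 ± 4.28 CPM (log2 fold change 4.92, edgeR adjusted p = 7.71e-20). MMP1, interstitial collagenase, was at 0 in every control library and at 2.81, 2.56, 1.79 and 1.72 CPM at 72 h, at least 16.2-fold higher.

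**Figure D3:**
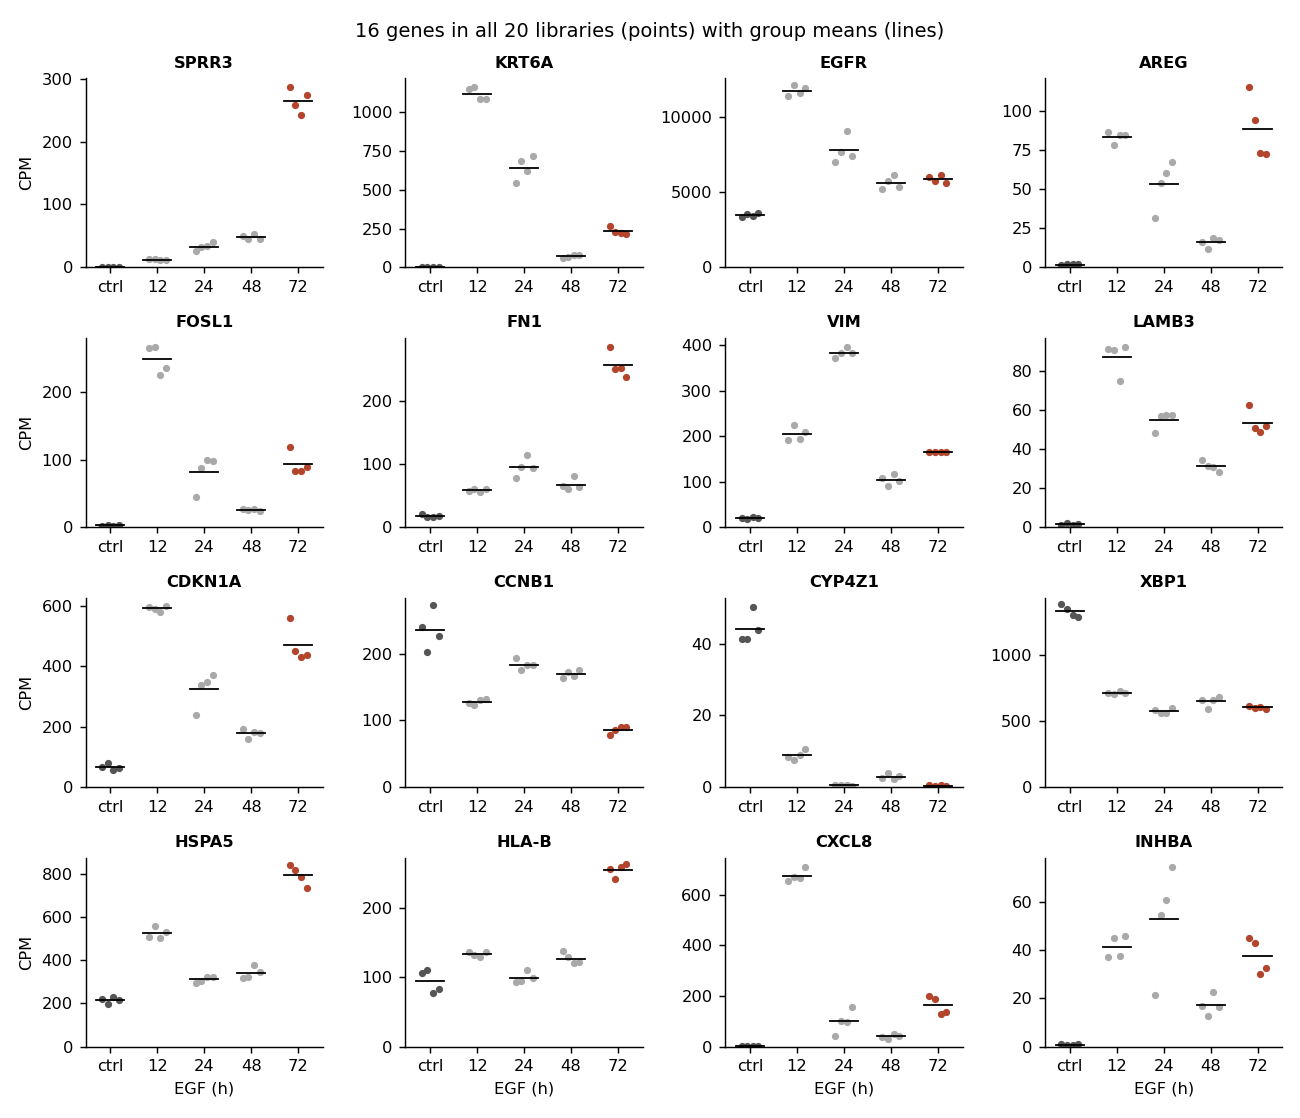
Points are the 20 libraries and lines the group means for 16 genes, in CPM on axes that start at 0, with the control on the left and hours of EGF along the horizontal axis. The red points at 72 h lie above the dark control points for 13 of the genes other than CCNB1, CYP4Z1 and XBP1, where they lie below.

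Immune signaling genes formed another raised block. Of 23 tested cytokine and NF-kB feedback genes 19 rose and 1 fell (median 2.79, or 2.30 with the members near 0 counts in the control set at their bounds). CXCL8, interleukin-8, stood at 1.21, 1.22, 2.18 and 1.68 CPM in the control libraries and 202, 190.3, 128 and 138 CPM in the 72 h libraries (log2 fold change 6.70 with a standard error of 0.411, edgeR adjusted p = 4.55e-10). Replicates 1 and 2 were the highest, and all 4 were above every control. CSF2, which encodes GM-CSF, was at 0 counts in every control library and at 7.09, 7.40, 5.19 and 5.88 CPM at 72 h, at least 46.5-fold higher. IL1B and IL1A were also at 0 in the controls, and at least 12.5-fold and at least 7.11-fold higher at 72 h. LIF rose from 2.10 ± 0.474 to 32.3 ± 8.93 CPM (log2 fold change 3.94, edgeR adjusted p = 1.18e-07), the interleukin-1 antagonist IL1RN from 12.9 ± 1.37 to 121 ± 10.2 CPM (log2 fold change 3.23, edgeR adjusted p = 8.94e-20) and TNFAIP3, which shuts down NF-kB signaling, from 5.00 ± 0.239 to 56.0 ± 7.38 CPM (log2 fold change 3.49, edgeR adjusted p = 4.24e-15). NFKB1 was the member that fell (26.8 to 23.3 CPM, log2 fold change -0.20, edgeR adjusted p = 0.00575), which did not pass with the factors per gene (adjusted p = 0.0775) or without the filter on low counts (adjusted p = 0.0591), and 2 members were lower without control replicate 3 or EGF 72 h replicate 1. Of 27 tested interferon-stimulated genes 19 rose and 3 fell (median 0.54). OAS1, a sensor of double-stranded RNA, stood at 14.2, 13.5, 13.8 and 16 CPM in the control libraries and 43.6, 38.7, 39.4 and 38.5 CPM in the 72 h libraries (log2 fold change 1.48 with a standard error of 0.0786, edgeR adjusted p = 6.61e-14). ISG20 rose from 1.62 ± 0.285 to 6.56 ± 0.414 CPM (log2 fold change 2.01, edgeR adjusted p = 1.5e-10), while IFIT1 fell from 8.54 ± 1.25 to 3.70 ± 0.542 CPM (log2 fold change -1.20, edgeR adjusted p = 2.08e-07). MX2 was also lower (log2 fold change -0.87). Of 15 MHC class I and antigen processing genes 12 rose and 1 fell (median 0.73). HLA-B stood at 106, 110.2, 77.2 and 83.5 CPM in the control libraries and 256, 241, 259 and 263 CPM in the 72 h libraries (log2 fold change 1.44 with a standard error of 0.0889, edgeR adjusted p = 1.22e-12), with every library higher than every control. B2M, the shared light chain, rose from 469 ± 23.1 to 777 ± 32.9 CPM (log2 fold change 0.73, edgeR adjusted p = 2.48e-09) and TAP2, a subunit of the peptide transporter, from 29.1 ± 2.01 to 94.2 ± 2.16 CPM (log2 fold change 1.70, edgeR adjusted p = 2.2e-14). HLA-B is similar to the other class I genes and highly variable in sequence, so its value is uncertain.

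Every one of the 28 mitotic genes fell (median -1.18), against 31.0% of all tested genes. CCNB1, the cyclin of mitotic entry, stood at 241, 203, 274 and 226 CPM in the control libraries and 77.9, 85.0, 89.9 and 89.7 CPM in the 72 h libraries (log2 fold change -1.46 with a standard error of 0.0744, edgeR adjusted p = 2.82e-14), with the lowest control far above the highest library at 72 h. TOP2A fell from 264 ± 32.3 to 85.5 ± 6.30 CPM (log2 fold change -1.63, edgeR adjusted p = 1.5e-14), CENPF from 133 ± 10.6 to 39.7 ± 3.25 CPM (log2 fold change -1.75, edgeR adjusted p = 9.84e-15) and BIRC5, survivin, from 108 ± 7.29 to 33.6 ± 3.16 CPM (log2 fold change -1.68, edgeR adjusted p = 5.12e-14). MKI67, the gene of the Ki-67 antigen, fell 2.02-fold (log2 fold change -1.01, edgeR adjusted p = 5.45e-09). DNA replication genes were mixed, with 13 of 28 lower and 7 higher (median -0.18). MCM10 fell from 19.1 ± 1.20 to 10.7 ± 1.34 CPM (log2 fold change -0.83, edgeR adjusted p = 3.48e-08), but CCNE1, the cyclin of S-phase entry, rose from 13.3 ± 1.23 to 33.6 ± 1.88 CPM (log2 fold change 1.34, edgeR adjusted p = 8.3e-12). Among 14 tested CDK inhibitors, D cyclins and pocket protein genes 5 rose and 3 fell (median 0.00). CDKN1A, the CDK inhibitor p21, stood at 66.3, 80.3, 57.7 and 63.9 CPM in the control libraries and 562, 452, 431 and 439 CPM in the 72 h libraries (log2 fold change 2.81 with a standard error of 0.120, edgeR adjusted p = 2.23e-15), all far above the controls. CDK6 rose from 15.0 ± 1.36 to 80.2 ± 4.6 CPM (log2 fold change 2.42, edgeR adjusted p = 3.33e-15) and CCND1 from 79.4 ± 1.18 to 143 ± 8.93 CPM (log2 fold change 0.85, edgeR adjusted p = 4.9e-09), while CDKN2C fell from 24.8 ± 1.40 to 10.6 ± 0.929 CPM (log2 fold change -1.23, edgeR adjusted p = 1.61e-09) and CDKN1B from 26.9 ± 3.64 to 18.6 ± 0.616 CPM (log2 fold change -0.53, edgeR adjusted p = 5.56e-05). The fall of CDKN1B did not pass with the factors per gene (adjusted p = 0.0889).

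Ribosome genes fell slightly and mitochondrial transcripts rose. The 79 cytosolic ribosomal protein genes held 7.64 ± 0.409% of counts in the control and 6.09 ± 0.2% at 72 h (SD, n = 4; 2-sided exact permutation test, p = 0.0286, the smallest this design allows). Of these genes 52 were lower and 0 higher (median -0.23). Ribosome biogenesis genes were 10 of 22 lower and 3 higher (median -0.24), or 5 higher without EGF 72 h replicate 4, for example UBTF, the ribosomal RNA gene activator (73.8 to 38.9 CPM, log2 fold change -0.92), and NCL, nucleolin (217 to 137 CPM, log2 fold change -0.66). The 13 mitochondrially encoded protein genes held 6.1 ± 1.32% and 9.51 ± 1.39% of counts (exact permutation p = 0.0286). In the controls the share ranged from 4.92 to 7.49% and at 72 h from 7.51 to 10.6%, so that the groups only just did not overlap. The difference of 3.41 points did not pass when any of the 4 control replicates, EGF 72 h replicate 1 or EGF 72 h replicate 4 was left out (3.01 to 3.87 points, exact permutation p = 0.0571 each). The groups still did not overlap then. With fewer arrangements p moves in coarse steps, so these values cannot show whether the difference rests on those libraries. Of these genes 8 rose and 0 fell (median 0.76), such as MT-ND4 (log2 fold change 1.10, edgeR adjusted p = 0.00164).

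Lipid enzymes did not move as 1 group. Of 21 cholesterol synthesis and uptake genes 13 fell and 3 rose (median -0.28). The exporter ABCA1 rose from 0.888 ± 0.209 to 4.30 ± 0.608 CPM (log2 fold change 2.28, edgeR adjusted p = 1.99e-08). Of 24 fatty acid genes 9 rose and 8 fell (median -0.04). The desaturases FADS1 and FADS2 rose from 4.97 ± 0.206 to 10.3 ± 0.769 CPM (log2 fold change 1.06, edgeR adjusted p = 3.35e-09) and from 11.6 ± 1.73 to 28.4 ± 0.683 CPM (log2 fold change 1.29, edgeR adjusted p = 4.61e-11). SCD was at 3131 ± 347 and 2695 ± 160.4 CPM (log2 fold change -0.22, edgeR adjusted p = 0.00999), with 3 of 4 libraries below all controls, and did not pass without control replicate 2 (log2 fold change -0.15). The elongases ELOVL4 and ELOVL6 rose (log2 fold changes 2.08 and 1.63), and SREBF1, which drives the pathway, and THRSP fell (log2 fold changes -1.25 and -3.05). The rise of ELOVL6 was lost with the factors per gene (log2 fold change 0.07). Of 48 tested glycerophospholipid enzyme genes 22 rose and 10 fell (median 0.21). The acyltransferase GPAT3 rose from 1.18 ± 0.184 to 19.7 ± 2.51 CPM (log2 fold change 4.06, edgeR adjusted p = 3.68e-15), LPCAT4 from 4.28 ± 0.982 to 17.7 ± 2.33 CPM (log2 fold change 2.05, edgeR adjusted p = 4.56e-11) and the kinase DGKA from 4.78 ± 0.827 to 18.4 ± 0.488 CPM (log2 fold change 1.95, edgeR adjusted p = 3.02e-14). LPCAT3 fell from 77.3 ± 6.86 to 44.0 ± 4.02 CPM (log2 fold change -0.81, edgeR adjusted p = 4.7e-09). The genes EMG1 and C1S overlap LPCAT3 on the other strand, and whether counting used strand is not given in the sources used here.

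Stress and metabolic programs rose in part. Of 17 tested endoplasmic reticulum (ER) chaperone and unfolded protein response genes 8 rose and 5 fell (median 0.13). HSPA5, the ER chaperone BiP, stood at 218, 198, 230.3 and 214 CPM in the control libraries and 840.2, 815, 785 and 736 CPM in the 72 h libraries (log2 fold change 1.88 with a standard error of 0.0666, edgeR adjusted p = 3.59e-17), above every control. HERPUD1 rose from 73.8 ± 3.67 to 234 ± 6.12 CPM (log2 fold change 1.66, edgeR adjusted p = 1.54e-16), but XBP1 fell, as given above, and so did PDIA6 and CANX (log2 fold changes -0.55 and -0.54). Of 18 ATF4 target genes 10 rose and 2 fell (median 0.32). DDIT3, the factor CHOP, rose from 3.67 ± 0.512 to 18.1 ± 1.86 CPM (log2 fold change 2.30, edgeR adjusted p = 6.35e-14) and SESN2 from 5.80 ± 0.866 to 14.4 ± 1.02 CPM (log2 fold change 1.31, edgeR adjusted p = 2.58e-10), while ATF4 itself fell from 884 to 749.7 CPM (log2 fold change -0.24, edgeR adjusted p = 0.00784), with 3 of 4 libraries below all controls. Of 17 tested hypoxia genes 12 rose and 4 fell (median 0.49). NDRG1 rose from 6.40 ± 1.22 to 45.1 ± 2.70 CPM (log2 fold change 2.81, edgeR adjusted p = 3.33e-14) and ADM, adrenomedullin, from 2.25 ± 0.406 to 10.2 ± 1.22 CPM (log2 fold change 2.18, edgeR adjusted p = 5.2e-11), whereas EGLN3 fell (log2 fold change -1.19, edgeR adjusted p = 1.91e-11). Of 22 glycolysis genes 11 rose and 1, PFKL, fell (median 0.18), with 1 of its 4 libraries at 72 h below all controls. The fall did not pass without control replicate 2, control replicate 4, EGF 72 h replicate 2 or EGF 72 h replicate 3 (log2 fold changes -0.20, -0.29, -0.23 and -0.28, against -0.30 with all libraries). HK2, a hexokinase, rose from 20.8 ± 0.375 to 75.5 ± 5.86 CPM (log2 fold change 1.86, edgeR adjusted p = 4.89e-16), ENO2 from 1.71 ± 0.536 to 10.5 ± 1.20 CPM (log2 fold change 2.62, edgeR adjusted p = 1.15e-12) and PFKP from 30.4 ± 3.92 to 106 ± 5.32 CPM (log2 fold change 1.8, edgeR adjusted p = 6.1e-15). NRF2 target genes leaned down, with 9 of 17 lower and 6 higher (median -0.20). AKR1B10 fell from 58.6 ± 6.51 to 13.6 ± 1.27 CPM (log2 fold change -2.11, edgeR adjusted p = 3.22e-15), and AKR1C2, one of several near-identical copies, from 217 ± 33.1 to 115 ± 2.74 CPM (log2 fold change -0.91, edgeR adjusted p = 1.77e-09). The lysosomal and cell death lists had 8 higher and 8 lower of 25 (median 0.07) and 9 higher and 6 lower of 23 (median 0.11), with 5 lower lysosomal genes without control replicate 1 or EGF 72 h replicate 1. In the first CTSB and CTSS rose (log2 fold changes 1.42 and 1.40) and in the second TNFRSF10B and PMAIP1 rose while the death ligand TNFSF10 fell (log2 fold changes 1.22, 1.20 and -1.69).

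Luminal identity genes fell in the main, with 10 of 14 tested lower and 3 higher (median -0.78). FOXA1, a pioneer factor of luminal cells, stood at 169, 185, 196 and 182 CPM in the control libraries and 69.4, 72.6, 71.2 and 70.3 CPM in the 72 h libraries (log2 fold change -1.37 with a standard error of 0.0588, edgeR adjusted p = 1.26e-15), lower in every library. PRLR, the prolactin receptor, fell from 188 ± 31.0 to 68.2 ± 3.49 CPM (log2 fold change -1.46, edgeR adjusted p = 7.35e-13), and KIT, a receptor of luminal progenitors, was 57.4-fold (95% counting interval 15.6 to 479) lower. The exceptions were ALDH1A3, a retinaldehyde dehydrogenase (66.4 ± 9.12 to 329.9 ± 12.8 CPM, log2 fold change 2.31, edgeR adjusted p = 6.16e-14), AGR2, an ER protein of secretory cells (71.8 ± 5.10 to 196 ± 10.3 CPM, log2 fold change 1.45, edgeR adjusted p = 1.07e-12), and GATA3 (log2 fold change 0.39). Of 23 tested TGF-beta and BMP pathway genes 6 rose and 10 fell (median 0.00). INHBA, the activin A subunit, stood at 1.11, 0.673, 0.854 and 1.11 CPM in the control libraries and 45.0, 42.9, 30.3 and 32.5 CPM in the 72 h libraries (log2 fold change 5.34 with a standard error of 0.401, edgeR adjusted p = 4.08e-09), above every control with replicates 1 and 2 the highest. GDF15 rose from 0.213 ± 0.115 to 11.4 ± 1.88 CPM (log2 fold change 5.69, edgeR adjusted p = 3.94e-16). Targets of BMP signaling were divided. ID1 rose from 1.59 ± 0.300 to 8.05 ± 1.24 CPM (log2 fold change 2.34, edgeR adjusted p = 1.64e-10) while ID2 and ID4 fell (log2 fold changes -1.40 and -1.49).

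The 72 h libraries were then compared directly with the earlier EGF libraries, and these 3 comparisons share the 72 h libraries. Against 48 h, 5906 genes differed (35.7%), 2951 higher (17.9%) and 2955 lower (17.9%). Against 24 h, 6650 differed (40.2%), 3402 higher (20.6%) and 3248 lower (19.7%). Against 12 h, 11169 differed (67.6%), 5877 higher (35.6%) and 5292 lower (32.0%). These directions depend on scaling, because scaling by library totals alone gave 2132 higher and 4175 lower against 48 h, 4001 and 2386 against 24 h, and 7477 and 3496 against 12 h. It moved the median log2 difference of all genes by 0.208 in the last of these, and upper quartile scaling, with 6946 higher and 4087 lower, moved it by 0.14. Of the 25 squamous genes 18 were higher than at 48 h and 0 lower, but 9 were higher and 9 lower than at 24 h, and 8 higher and 11 lower than at 12 h. Of the 17 keratin genes 15 were higher than at 48 h and 0 lower. There were 4 higher and 8 lower than at 24 h, and 1 higher and 13 lower than at 12 h. The higher squamous genes against 12 h and the higher keratin genes against 24 h were near the shares over all tested genes. Of the 28 mitotic genes 28 were lower than at 48 h, 26 than at 24 h and 21 than at 12 h, where 2 were higher. Ribosome biogenesis genes were lower than at 12 h for 22 of 22, and interferon-stimulated genes were higher than at 24 h for 23 of 27.

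Time courses that ran through 72 h took different shapes. EGFR, the receptor, had group means of 11752, 7788 and 5607 CPM at 12, 24 and 48 h. Its level at 72 h was below that at 12 h (log2 difference -1.0, edgeR adjusted p = 7.11e-12). Several genes of the EGF response had their lowest treated mean at 48 h and were higher again at 72 h. FOSL1 was at 248, 82.1 and 25.7 CPM at those times, with a level at 72 h above that at 48 h (log2 difference 1.87, edgeR adjusted p = 6.93e-07). KRT6A was at 1118, 642 and 70.2 CPM and likewise above its 48 h level (log2 difference 1.72, edgeR adjusted p = 6.34e-12). CXCL8 was at 675, 99.99 and 40.6 CPM and rose again (log2 difference 2.02, edgeR adjusted p = 5.3e-05). CDKN1A was at 593, 324 and 178 CPM (log2 difference 1.41, edgeR adjusted p = 1.98e-09 against 48 h). Others climbed throughout. SPRR3 was at 12.2, 32.9 and 48.6 CPM before its value at 72 h (log2 difference 2.45, edgeR adjusted p = 6.8e-14 against 48 h), and LCN2 at 241, 363 and 683 CPM (log2 difference 1.56, edgeR adjusted p = 5.23e-12 against 48 h).

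**Figure D4:**
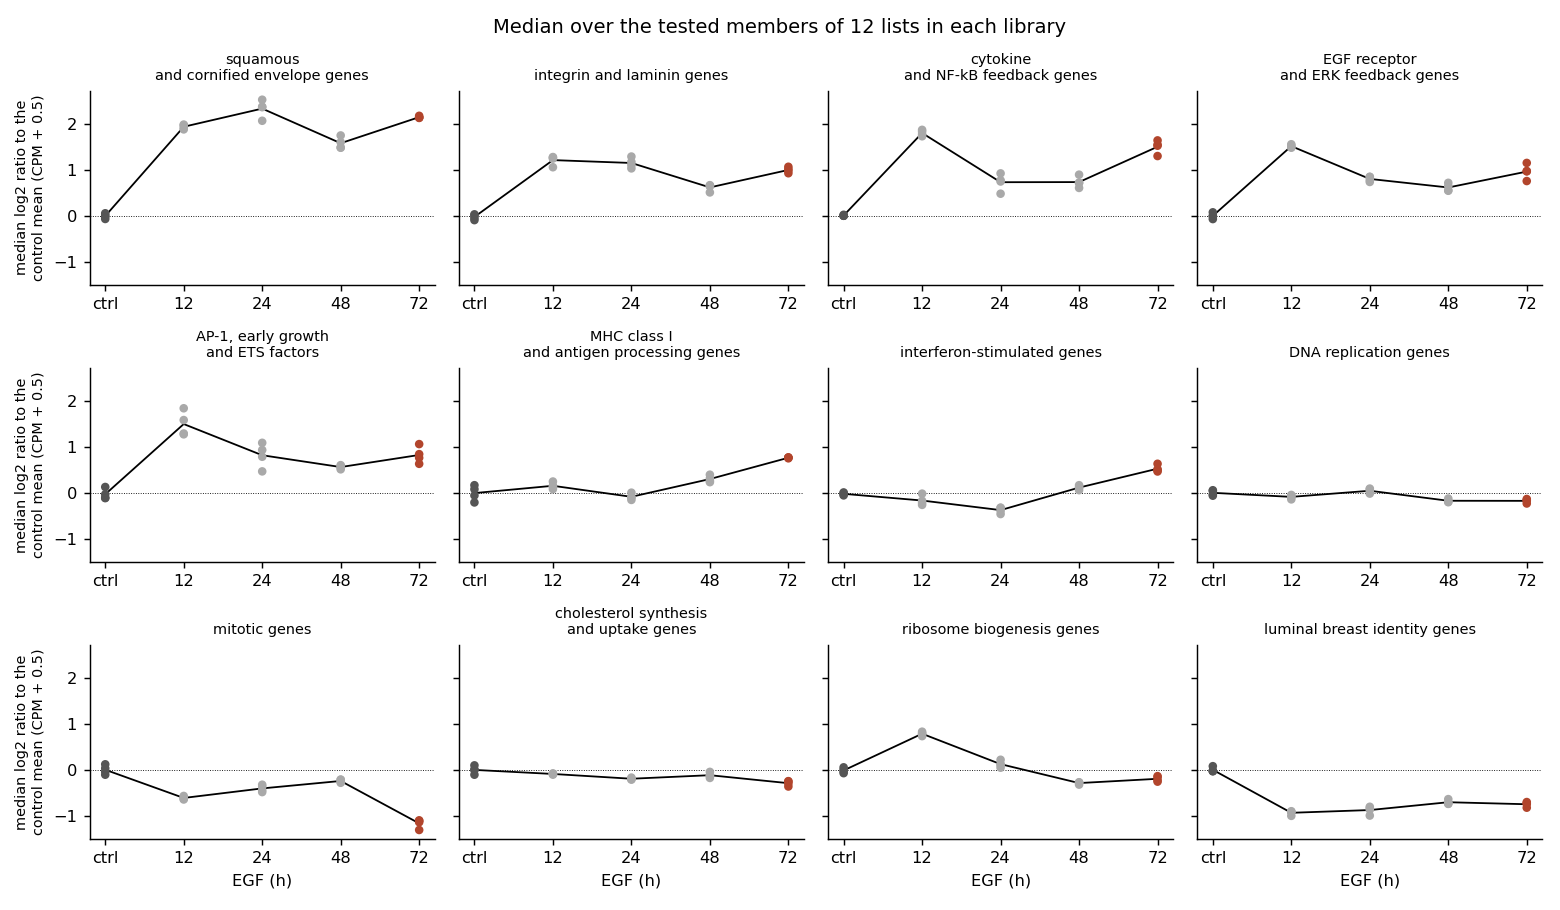
Each point is 1 library, and its height is the median, over the tested members of a list, of the log2 ratio to the control mean, with 0.5 CPM added to both. Red points mark 72 h and dark points the control. Mitotic genes reach their lowest medians and MHC class I genes their highest at 72 h, while ribosome biogenesis genes are above the control at 12 h and below it at 72 h.

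At 72 h, 898 genes (5.44%) were higher than in each of the other 4 groups by 4 direct tests, and 587 (3.55%) were lower. Of the long noncoding RNAs 8.11% were highest at 72 h and 0.416% lowest, compared with 4.93% and 4.26% of protein-coding genes. These kinds of gene were not matched for level, and the part of level in this contrast was not tested. By list, 20 of 28 mitotic genes were lowest at 72 h, and 12 of 27 interferon-stimulated, 8 of 25 squamous, 6 of 15 MHC class I and 6 of 23 cytokine genes were highest. The AP-1 site was in 8.33% of the matched promoters of the genes highest at 72 h (48 of 576) and in 1.47% of those of the genes lowest (7 of 476).

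The margin of a gene is its smallest log2 difference from any of the other 4 groups, and the widest margin above was that of OLAH, a thioesterase that releases fatty acids early from fatty acid synthase in the lactating gland. It stood at 0.151, 0.0841, 0.256 and 0.0481 CPM in the control libraries and 20.8, 18.6, 17.8 and 15.7 CPM in the 72 h libraries, and at a mean of 1.45 CPM at 48 h (log2 difference 3.63, edgeR adjusted p = 1.54e-11). COMETT had a mean of 1.51 CPM at 48 h (log2 difference 3.55, edgeR adjusted p = 1.39e-10) and RNASE7 one of 3.38 CPM (log2 difference 3.44, edgeR adjusted p = 5.86e-11), while the group nearest to PRR9 was 24 h, with a mean of 5.10 CPM (log2 difference 3.28, edgeR adjusted p = 1.42e-12). LINC00520, SPRR2A, SPINK1 and LINC01897 completed the 8 widest. On the low side, CRISP3 went from a mean of 16.2 CPM at 48 h to 5.93 ± 0.972 CPM (log2 difference -1.47, edgeR adjusted p = 2.45e-10) and MUCL1 from 10.3 CPM (log2 difference -1.33, edgeR adjusted p = 5.74e-09). PARPBP, a regulator of homologous recombination, stood at 15.7, 12.8, 18.2 and 14.7 CPM in the control libraries and 2.51, 3.58, 3.24 and 3.83 CPM in the 72 h libraries, with 7.38 CPM at 48 h (log2 difference -1.19, edgeR adjusted p = 2.61e-06). POLQ, the polymerase of microhomology-mediated repair, was at 16.1 CPM at 48 h and 7.77 ± 0.744 CPM at 72 h (log2 difference -1.06, edgeR adjusted p = 9.84e-08). CENPA, the histone of centromeres, went from 31.9 to 14.4 ± 1.41 CPM (log2 difference -1.16, edgeR adjusted p = 4.95e-10), and CDC20, which activates the anaphase-promoting complex, from 113 to 56.8 ± 5.32 CPM (log2 difference -1.0, edgeR adjusted p = 9.45e-10). AXIN2 was at 2.55 CPM at 48 h (log2 difference -1.72, edgeR adjusted p = 1.81e-06). IGFL1 reversed over the course. It was at 1.90 ± 0.652 CPM in the control, at 63.0 CPM at 12 h and at 0.493 ± 0.177 CPM at 72 h (with log2 fold change -2.01, edgeR adjusted p = 2.04e-06 against the control, log2 difference -7.05, edgeR adjusted p = 7.12e-18 against 12 h).

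**Figure D5:**
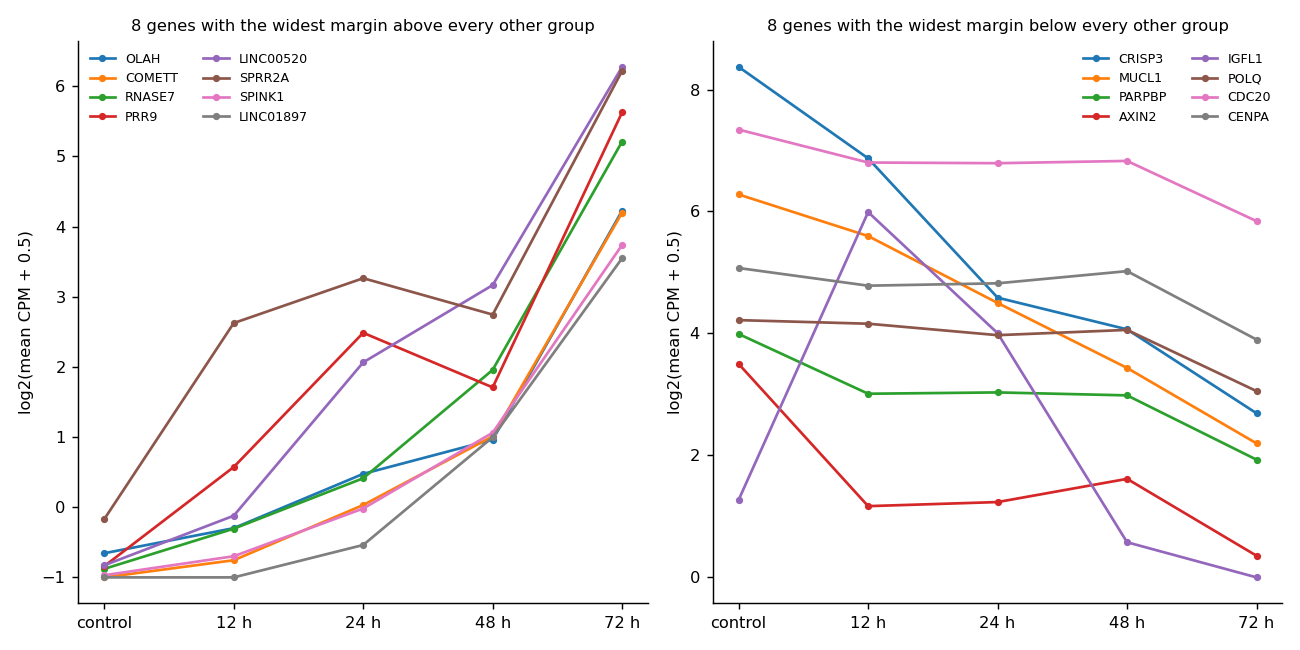
Lines join the group means, as log2 of CPM + 0.5, of the 8 genes with the widest margin above every other group at 72 h (left) and of the 8 with the widest margin below (right). The genes on the left climb most steeply between 48 and 72 h, and IGFL1 on the right peaks at 12 h.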

How the data were processed

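RNA of 20 libraries in 5 groups of 4 (untreated control, EGF for 12, 24, 48 or 72 h; separate biological replicates per the labels) was sequenced by the authors from Lexogen Corall mRNA libraries as single-end reads. The deposited tables hold the authors' counts per gene, used here, and their normalized values, a score whose factor to the count differs between genes and libraries. The submitters' processing notes name hg38 and DESeq2. The aligner, counter, annotation, strand setting and handling of molecular identifiers were not given in the sources used here. Columns of the authors' own comparisons (fold changes and p-values) were not used.

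Counts were analysed in R 4.3.3 with edgeR 4.0.16 and limma 3.58.1. filterByExpr kept 16522 of 60271 genes, libraries were scaled by TMM, and a robust quasi-likelihood fit of all 20 libraries gave each comparison, with Benjamini-Hochberg adjustment over all tested genes and a threshold of 0.05. Log2 fold changes use a prior count of 0.125, and a fold against a group at 0 counts is a bound against 3 counts per library. Errors are SD over 4 libraries unless a standard error is named. Shares of counts were compared by an exact two-sided permutation test. The scripts were tested on simulated counts.

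The genes and the 34 gene lists (692 symbols, 637 tested) were chosen with earlier results of these data known. Named genes are the 12 largest rises and 12 largest falls with at least 10 CPM and no overlap, the 8 largest CPM gains and losses, up to 3 rises and 3 falls per list, the 8 genes highest and 8 lowest at 72 h by margin, a fixed set of EMT, cell cycle and lipid genes, and further list members. SMAD4 and CD68 were chosen after their values were seen. Alternatives were other scalings, filters and prior counts, DESeq2 1.42.0, the 8 libraries alone, a replicate block, a test against a 1.5-fold change, the authors' factors per gene and each library left out in turn. Some genes that these rules select are not reported here.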

Additional observations from a re-analysis of the deposited data

Results flagged for a closer look

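Among 398 groups of 4 libraries, 2 for each of 199 genes that the text names, and the groups of the 2 shares of counts, 19 held a library far from the other three by Dixon's criterion, close to the 1 in 20 that chance gives. In the control these were AGR2 at 79.4 CPM and ITGA6 at 134 CPM in replicate 3. CDC20 at 173 CPM, FOSB at 1.81 CPM and LPCAT3 at 87.5 CPM stood apart in replicate 2. AREG at 1.56 CPM, EZR at 104 CPM, KLF5 at 97.2 CPM and the ribosomal protein share of 8.24% did so in replicate 1. LINC00973 and SPINK1 were each at 0.0427 CPM in control replicate 3, which is 1 count each beside 0 in the other three control libraries, where any single count would be set apart. After 72 h the values were CDKN1A at 562 CPM, EGR1 at 52.2 CPM, FOSL1 at 119 CPM and SPRR2D at 40.5 CPM in replicate 1. In replicate 2 they were ATP13A5 at 2.33 CPM, CLDN3 at 6.88 CPM, ETV5 at 50.7 CPM and MT2A at 2560 CPM.

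For 16 named genes the change against the control was in opposite directions at 12 h and at 72 h, with 72 h also different from 12 h at an edgeR adjusted p under 0.05. The log2 differences of 72 h from 12 h were positive for AGR2 (2.72), FADS2 (1.6) and FTH1 (1.27), which were below the control at 12 h and above it at 72 h. The others were above the control at 12 h and below it at 72 h. The largest of these differences were those of IGFL1, at -7.05, and TAGLN, a smooth muscle actin-binding protein, at -4.7. NCL (-1.5), LRIG3 (-1.39), CTNNB1 (-1.13), EGR1 (-1.02) and CDH1 (-1) followed. The differences were -0.93 for ATF4, -0.91 for CCN1, -0.84 for PDIA6, -0.8 for NFKB1, -0.57 for EPCAM and -0.57 for PFKL. Scaling by library totals shifted the median of all genes by 0.208 on the log2 scale in this comparison.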

How the results depend on the processing

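The 10177 genes called at 72 h came to between 9504 and 10256 when any 1 of the 8 libraries was left out, 4819 to 5165 of them higher and 4685 to 5091 lower, 3274 to 3524 above 1.5-fold and 2438 to 2619 below 0.67-fold. List members called came to 466 to 488. The ribosomal protein share differed by -1.64 to -1.34 points. The mitochondrial share differed by 3.01 to 4.07 points and missed the threshold (exact permutation p = 0.0571) without 6 of the 8 libraries, each in turn, where p moves in coarse steps. KRT5, which did not pass, ran from -0.027 to 0.085 (log2), was -0.0091 without control replicate 4 and -0.0025 without EGF 72 h replicate 1, and was -0.0022 with upper quartile scaling and -0.056 with library totals.

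The authors' factors per gene, which need 20 counts in every library and leave 11956 genes, gave 6559 calls against the control (3068 higher, 1902 above 1.5-fold), 3209 against 48 h (1738 higher, 1471 lower), 3612 against 24 h (1598 higher, 2014 lower) and 7268 against 12 h (2864 higher), with 310 genes highest and 315 lowest at 72 h. How much of this came from the factors and how much from the filter was not tested. A test against a 1.5-fold change, which by construction calls fewer, gave 3899 genes (2417 higher, 1482 lower, all 1482 below 0.67-fold) and 246 list members. Requiring 10 counts in every library left 12886 genes, 1698 of them called below 0.67-fold. With library totals 43.1% of calls against the control were higher, against 49.7%, and 3496 genes were lower than at 12 h. The cause of these changes was not tested.

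The same-numbered control and 72 h libraries did not deviate together (r = -0.03, -0.6, -0.02 and -0.22 over 9518 genes, which are not independent). The replicate numbers were therefore not taken as pairs. Some libraries of unlike number were correlated, such as control replicate 3 with EGF 72 h replicate 2 (r = 0.54) and replicate 1 (r = -0.45). For control replicate 2 with EGF 72 h replicate 1, r was 0.49. The source of these shared deviations was not tested. A replicate block in the fit of all libraries gave 5165 higher and 5145 lower genes, and 4298 and 4253 in the fit of 8 libraries, where ACTB, ATF4, NFKB1, PFKL, SCD and TGM1 lost their calls. The 8 libraries without it gave 4586 and 4678, and DESeq2 5194 and 4891. Leaving out EGF 24 h replicate 1, which was chosen once the data had been seen, gave 6509 genes against 24 h, 872 highest and 551 lowest at 72 h.

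Of 1428 counts of list members over the alternatives, 1308 were within 1.5 times the reported count. With 4 libraries per group, counting depth limits mainly genes near the floors of 0.137 CPM in the control and 0.161 CPM after 72 h.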
